A study of Mus musculus with 6 samples.

Results

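Tagln, Col1a1, Acta1 and Actc1 are 4 of the 1653 genes with a row in the count files of this series, and they were taken by name. Tagln encodes transgelin, an actin-bundling protein of smooth muscle and of spread fibroblasts. Col1a1 encodes the alpha 1 chain of type I collagen, the main fibrillar collagen secreted by fibroblasts. Acta1 and Actc1 encode the skeletal and the cardiac isoform of muscle alpha-actin, the thin filament protein of the sarcomere. The libraries are poly(A)-selected RNA of mouse embryonic stem cells (strain C57BL/6), with 3 libraries labelled wild type and 3 labelled Yaf2KO, a genotype made with Cas9. Every culture, wild type included, grew in serum and leukemia inhibitory factor on mouse embryonic fibroblasts inactivated with mitomycin-C, so feeder RNA can be part of each library; its part in any value was not tested. No label says whether the Yaf2KO libraries come from 1 clone or several, or whether replicates are separate cultures. A p-value here reflects the spread among these libraries alone, part of which may be technical. Reads of Uba1y, a Y-linked gene, were 108, 60 and 93 in wild type and 978, 13 and 7 in Yaf2KO 1 to 3. Those of Zfy1, also Y-linked, were 8, 8 and 6 against 837, 1 and 0. Scaled on the listed genes (CPM, described below), Uba1y was at 1612, 1035 and 1342 in wild type and 2015, 51.3 and 52.8 in Yaf2KO 1 to 3. Zfy1 was at 119, 138 and 86.6 against 1724, 3.9 and 0. In both genes Yaf2KO 2 and 3 thus lay below every wild-type library. Yaf2KO 1 lay far above wild type for Zfy1 and near it for Uba1y. The bearing of this on the members was not tested. Yaf2 itself is not among the listed genes, so the targeted gene was not checked.

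As background, contractile genes and collagen genes are both hallmarks of mesenchymal cells. Smooth muscle and fibroblast genes such as Tagln and Acta2 respond to serum response factor (SRF) with its actin-sensing cofactors of the MRTF family and to TGF-beta signalling, and type I collagen is made at high level by embryonic fibroblasts. Sarcomeric actins are usually read as signs of cardiac or skeletal muscle, but skeletal and cardiac alpha-actin are also SRF targets that can be transcribed outside striated muscle.

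The promoters of both striated actins are shown because they carry the CArG box, the site that SRF recognises, and because the counts of these genes are compared below. RefSeq (GRCm38.p6) promoter sequence was found for 2 of the 4 genes. Each line gives the 250 bases before the start in RefSeq, 5′ to 3′ on the gene's strand, with the CArG box in capitals.
Acta1 promoter (chr8:123894776-123895025, minus strand): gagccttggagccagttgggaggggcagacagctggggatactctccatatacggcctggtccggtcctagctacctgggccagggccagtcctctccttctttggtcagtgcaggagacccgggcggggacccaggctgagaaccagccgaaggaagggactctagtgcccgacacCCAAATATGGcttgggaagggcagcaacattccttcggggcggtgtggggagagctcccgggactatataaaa
Actc1 promoter (chr2:114052876-114053125, minus strand): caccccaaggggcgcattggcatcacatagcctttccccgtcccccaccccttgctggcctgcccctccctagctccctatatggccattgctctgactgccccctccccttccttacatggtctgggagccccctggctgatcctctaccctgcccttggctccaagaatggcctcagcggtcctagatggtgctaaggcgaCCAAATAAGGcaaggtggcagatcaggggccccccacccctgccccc
The Acta1 match, CCAAATATGG, spans positions -73 to -64 from the start, and the Actc1 match, CCAAATAAGG, spans -47 to -38. Positions are counted from the RefSeq start. For Actc1 that start lies inside the gene's span in the count files, so its window is within the gene as annotated there. For Acta1 the window lies outside that span and stops short of the gene's 5′ end there, position 123894736. Distances from that end would be longer than the positions given. Both strands were searched; the motif reads the same on either strand. Of all 32851 RefSeq promoters of this length 1.47% hold a CArG box, and of the 885 promoters of listed genes 2.15% do. The motif TATAAA was found in the Acta1 window (positions -7 to -2) and in 12.4% of all promoters. A match describes these letters only.

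Acta1 and Actc1 belong to a family of near-identical proteins, so how far reads can tell the genes apart matters for every actin value. In GENCODE vM21 the coding sequences of Acta1 and Actc1, 1131 bases each without the stop codon, were identical at 976 positions (86.3%). Acta1 and Acta2, the smooth muscle alpha-actin gene, matched at 85.4%. The longest stretch shared without a difference was 29 bases between Acta1 and Actc1, also 29 between Acta1 and Acta2, and 38 between Actc1 and Actg2. None of the 50-base windows of the 4 muscle actin coding sequences occurred unchanged in another of them (0 of 1082 for Acta1 and 0 of 1082 for Actc1). No source used here gives the read length or alignment settings, and other actins and pseudogenes were not compared, so the actin counts keep an uncertainty of assignment.

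In the files' mm10 coordinates Tagln lies on chromosome 9 (45929628 to 45936058, minus strand), Col1a1 on chromosome 11 (94936224 to 94953042, plus strand), Acta1 on chromosome 8 (123891767 to 123894736, minus strand) and Actc1 on chromosome 2 (114047282 to 114053548, minus strand). All 4 are protein-coding, and each value is a sum over the whole gene. Tagln overlaps Pcsk7 and Gm48529 in the annotation, Acta1 overlaps Gm20388 and Actc1 overlaps A530058N18Rik; no strand setting is stated, so reads of such partners cannot be told apart.

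The listed genes are a part of each library. Their summed counts ran from 56367 to 72975 in wild type and from 143682 to 451075 in Yaf2KO, and library totals were not used here. Raw counts are therefore given with values scaled on the listed genes (CPM, the count's share of the TMM-scaled listed sum on the usual CPM scale), on which the typical listed gene has no change. This scaling removes any rise that most listed genes share. Without library totals, such a rise and a difference in depth cannot be told apart. Of 376 tested genes 3 were called between the genotypes (0.798%, by edgeR's quasi-likelihood test with Benjamini-Hochberg adjustment at a threshold of 0.05). The embryonic stem cell identity gene Nanog was among the 8 listed genes with the most reads in every library.

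On the scaled values, which compare a gene with the typical listed gene only, none of the 3 members that could be tested, Tagln, Col1a1 and Acta1, was called. Their fitted log2 fold changes were 0.20, 0.04 and -0.07, against a median of -0.03 over all 376 tested genes. What stood out was the spread between the Yaf2KO libraries. Tagln and Col1a1 lay below every wild-type library in Yaf2KO 1 and above every wild-type library in Yaf2KO 2 and 3. Actc1, with few reads, was the 1 member with higher scaled values in all 3 Yaf2KO libraries than in any wild-type library.

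In raw counts every Yaf2KO library lay above every wild-type library for Tagln, Col1a1 and Actc1, but not for Acta1. That is 3 of 4 members, where 27.4% of all listed genes and 73.3% of those averaging 100 or more reads show the same separation. Without Yaf2KO 3 it is 4 of 4, and without any other single library 3 of 4. The share over all genes was not computed with a library left out, so these counts have no background beside them. For the 3 members with a mean count over 100, 2 of them separated with all libraries kept, the share is near the 73.3% background.

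The wild-type libraries 1 to 3 held 1200, 900 and 780 Tagln reads, and Yaf2KO libraries 1 to 3 held 2493, 7092 and 2428. Scaled, these were 17908, 15532 and 11259 CPM in wild type, against 5135, 27976 and 18303 in Yaf2KO. The genotypes overlapped: Yaf2KO 1 was the lowest of the 6 libraries and Yaf2KO 2 the highest, 5.45-fold apart, where the wild-type libraries were at most 1.59-fold apart. Fitted on the log2 scale, Yaf2KO differed from wild type by 0.20 (SE 0.52, edgeR adjusted p = 0.950, n = 3 libraries each, 2 of 3 Yaf2KO libraries above all wild-type ones). Without Yaf2KO 1 it was 0.63 (SE 0.35, edgeR adjusted p = 0.413) and without Yaf2KO 2 -0.36 (SE 0.52).

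Col1a1 reads numbered 252, 285 and 210 in the wild-type libraries, against 290, 1487 and 742 with Yaf2KO. Yaf2KO 1 thus held as many Col1a1 reads as a wild-type library (exact 95% Poisson interval 258 to 325, against 253 to 320 in wild type 2), although its listed genes together had more than any other library. Scaled levels were 3761, 4918 and 3031 CPM in wild type, against 597, 5866 and 5593 in Yaf2KO. The collagen gene was low in Yaf2KO 1 alone, and Yaf2KO 2 and 3 lay just above the wild-type range. The fitted log2 difference was 0.04 (SE 0.66, edgeR adjusted p = 0.986). It came to 0.55 (SE 0.33, edgeR adjusted p = 0.453) without Yaf2KO 1 and to -0.36 (SE 0.75) without Yaf2KO 2.

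For Acta1 the wild-type libraries gave 200, 131 and 54 reads and the Yaf2KO libraries 486, 964 and 123. In CPM these were 2985, 2261 and 779 in wild type and 1001, 3803 and 927 in Yaf2KO. Both genotypes were spread widely and overlapped: wild type 3, Yaf2KO 1 and Yaf2KO 3 were low, and Yaf2KO 2 was the highest. The fitted log2 difference was -0.07 (SE 0.65, edgeR adjusted p = 0.983, 1 of 3 Yaf2KO libraries above all wild-type ones), and -1.07 (SE 0.62) without Yaf2KO 2. Unlike Tagln and Col1a1, whose wild-type values were close (SD of 0.34 and 0.35 log2 units), Acta1 varied nearly as much within wild type (SD 1.02) as within Yaf2KO (SD 1.14).

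Actc1 reads were few, with 3, 1 and 3 in the wild-type libraries against 53, 51 and 9 with Yaf2KO. Counting error is large at this level: the exact 95% Poisson intervals reach from 0.0253 to 8.77 counts over the wild-type libraries, and the interval of Yaf2KO 3 is 4.12 to 17.1. Scaled values were 44.8, 17.3 and 43.3 CPM in wild type (35.1 ± 15.5, SD, n = 3) and 109, 201 and 67.9 in Yaf2KO (126 ± 68.2, SD, n = 3). The groups did not overlap, as in 7.61% of the 355 listed genes averaging 20 or more reads and 6.12% of the tested genes. The low-count filter left Actc1 out of the test. Its fitted log2 fold change was 1.82 with no test, and 2.19 (SE 0.88, edgeR adjusted p = 0.629) in a fit without the filter, so a difference was not shown.

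**Figure D1:**
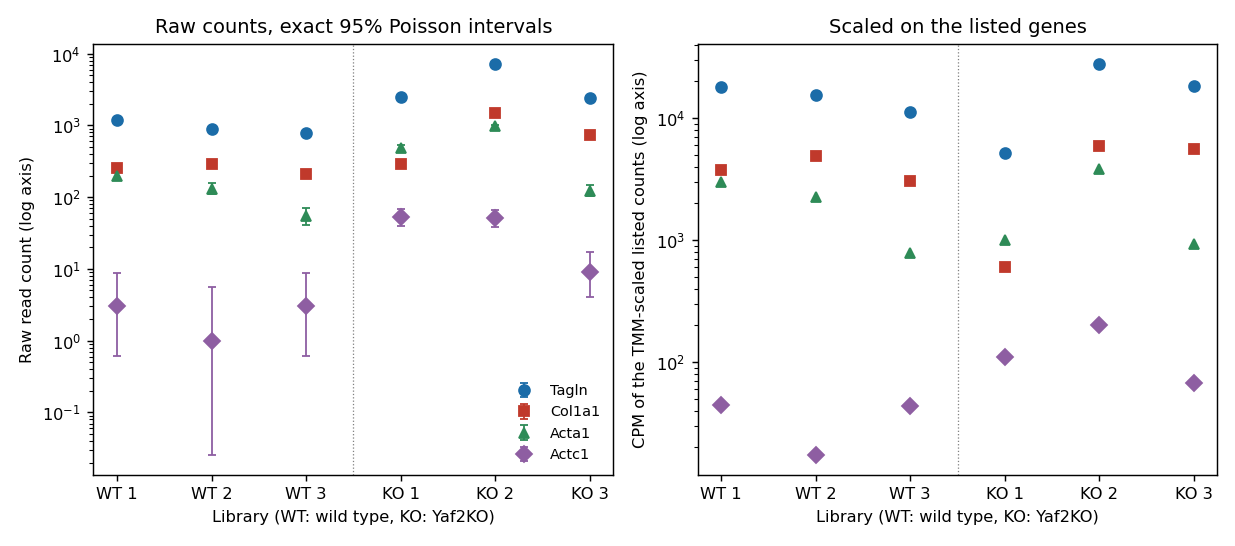
Raw read counts with exact 95% Poisson intervals (left) and CPM of the TMM-scaled listed counts (right), both on log axes, for the 4 genes in each wild-type (WT) and Yaf2KO (KO) library. After scaling, Tagln and Col1a1 are lowest in KO 1 (5135 and 597 CPM), and only Actc1 has all 3 KO points above all WT points.

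Per kilobase of annotated exon, the scale on which genes can be compared, Tagln was the highest of the 4 in every library, at 7495 ± 1695 CPM per kb in wild type and 8621 ± 5767 in Yaf2KO (SD, n = 3 each). Actc1 was the lowest in every library, at 21.7 ± 9.57 and 77.9 ± 42.2 CPM per kb. Acta1 (1307 ± 732 in wild type, 1244 ± 1067 in Yaf2KO) and Col1a1 (595 ± 145 and 612 ± 452) lay between and did not differ beyond their spread. Their order turned between libraries: per kb Acta1 was above Col1a1 in all libraries except Yaf2KO 3, where Acta1 had 604 and Col1a1 852 CPM per kb. In Yaf2KO 1 the per-kb level of Col1a1 was 91.0, close to the 67.5 of Actc1.

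The spread within Yaf2KO can be set beside that of the other genes. The SD of log2 CPM over the 3 Yaf2KO libraries was 1.88 for Col1a1, 1.27 for Tagln, 1.14 for Acta1 and 0.78 for Actc1, where the median tested gene had 0.69. Of the 376 tested genes 93.6% varied less than Col1a1, 84.3% less than Tagln and 80.0% less than Acta1. In wild type the SD of Tagln and Col1a1 lay below the median of 0.45.

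A ratio of 2 genes within 1 library needs neither the library total nor a scaling, and 6 such ratios separate the collagen, smooth muscle and striated actin reads. None differed between the genotypes beyond the spread of the libraries. In exact two-sided permutation tests the smallest p was 0.20 and the smallest adjusted over the 6 ratios 0.60, where 3 libraries against 3 cannot go below 0.10. All 6 ratios overlapped between the genotypes.

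Of the Acta1 and Tagln reads together, Acta1 took 14.3%, 12.7% and 6.48% in wild type, against 16.3%, 11.97% and 4.82% in Yaf2KO. The log2 ratio was -3.07 ± 0.68 in wild type and -3.18 ± 1.004 in Yaf2KO (SD, n = 3 each), a difference of -0.11 (exact permutation p = 0.80). Within Yaf2KO the exact 95% binomial intervals did not meet: 15.0% to 17.7% in library 1, 11.3% to 12.7% in library 2 and 4.02% to 5.73% in library 3. These intervals cover counting error only. In wild type libraries 1 (12.5% to 16.2%) and 2 (10.7% to 14.9%) overlapped, and only library 3 (4.90% to 8.36%) lay apart. So skeletal actin and transgelin reads shifted against each other among all Yaf2KO libraries, and in wild type between library 3 and the others.

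Against collagen the shift was wider. Acta1 took 44.2%, 31.5% and 20.5% of the Acta1 and Col1a1 reads in wild type and 62.6%, 39.3% and 14.2% in Yaf2KO. Yaf2KO 1 was the 1 library with more Acta1 than Col1a1 reads (exact 95% interval 59.1% to 66.0%), and Yaf2KO 3 had the lowest Acta1 share (11.96% to 16.7%). The mean log2 ratio was -1.13 ± 0.81 in wild type and -0.82 ± 1.68 in Yaf2KO (difference 0.31, exact permutation p = 0.90, n = 3 each), and the difference was -0.47 without Yaf2KO 1.

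The Tagln to Col1a1 ratio had the smallest spread of the 6 ratios in wild type, but not in Yaf2KO, where that of Actc1 to Acta1 varied less (SD 0.52). Tagln took 82.6%, 75.9% and 78.8% of their joint reads in wild type, against 89.6%, 82.7% and 76.6% in Yaf2KO. The mean log2 ratio was 1.93 ± 0.30 and 2.36 ± 0.70 (difference 0.42, exact permutation p = 0.40, n = 3 each). Only in Yaf2KO 1 did the share leave the wild-type range beyond its counting interval (88.4% to 90.7%), with 859.7 Tagln reads per 100 Col1a1 reads against 316 to 476 in wild type.

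The cardiac actin share was small throughout. Actc1 made up 1.48%, 0.758% and 5.26% of the Actc1 and Acta1 reads in wild type, against 9.83%, 5.03% and 6.82% in Yaf2KO. The exact 95% interval of wild type 3, 1.10% to 14.6%, covers every Yaf2KO share, while those of wild type 1 (0.306% to 4.26%) and wild type 2 (0.0192% to 4.15%) cover none. The log2 ratio of Actc1 was higher in Yaf2KO by 1.71 against Acta1, 1.60 against Tagln and 2.02 against Col1a1 (exact permutation p = 0.20, 0.20 and 0.30, n = 3 each), and with 7 Actc1 reads in all of wild type these ratios are imprecise.

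**Figure D2:**
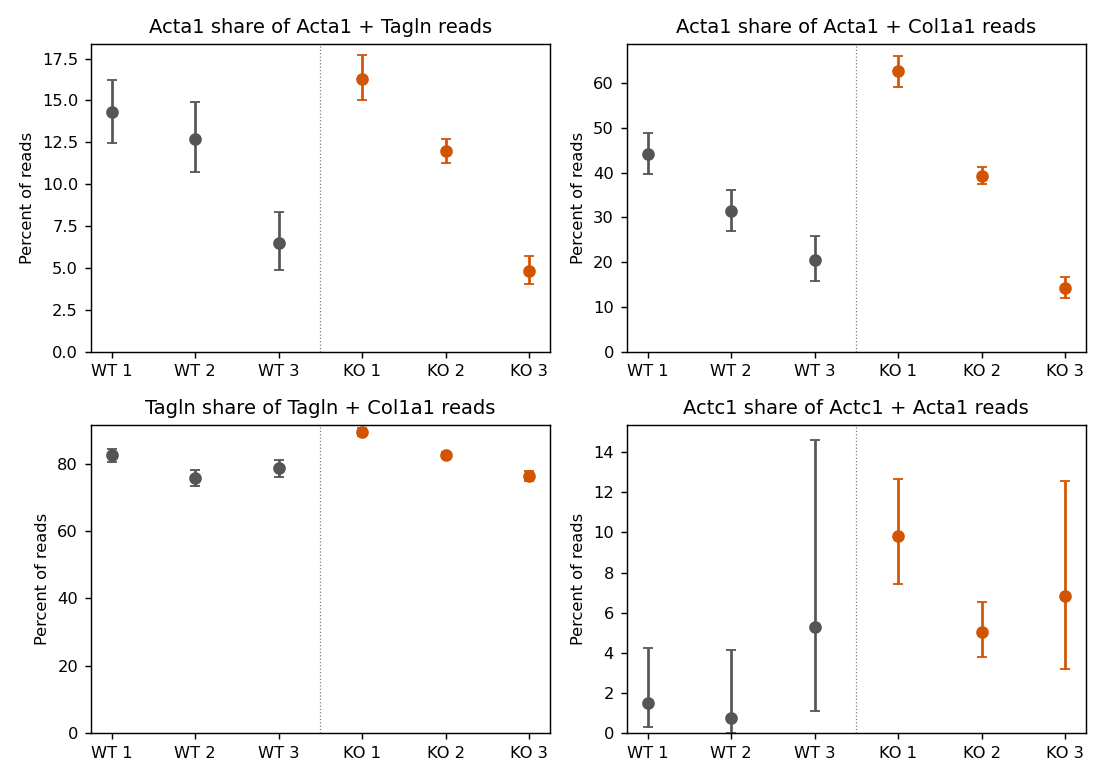
Share of reads, in percent with exact 95% binomial intervals, that the first gene takes of the reads of a gene pair in each wild-type (WT, grey) and Yaf2KO (KO, orange) library. The Acta1 share of Acta1 and Col1a1 reads runs from 14.2% in KO 3 to 62.6% in KO 1, and the genotypes overlap in every panel.

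Set against Nanog as the embryonic stem cell reference, Tagln had 53.6, 51.4 and 28.3 reads per 100 Nanog reads in wild type and 12.4, 81.4 and 86.2 in Yaf2KO. Col1a1 had 11.3, 16.3 and 7.62 in wild type and 1.45, 17.1 and 26.4 in Yaf2KO. By this measure too, Yaf2KO 1 was the lowest library for both genes and Yaf2KO 2 and 3 were the highest. Acta1 gave 8.93, 7.49 and 1.96 against 2.42, 11.1 and 4.37, with wild type 3 the lowest. Scaled Nanog itself was 33413, 30201 and 39780 CPM in wild type and 41305, 34358 and 21228 in Yaf2KO, so Yaf2KO 1 had the highest Nanog and the lowest Tagln and Col1a1 levels. In bulk RNA, fewer cells of a type and less RNA per cell cannot be told apart.

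Lists of related genes placed the members among their kind; each list was only partly listed. Of 25 smooth muscle genes 6 were listed and 5 tested, with 0 called and a median log2 fold change of 0.33, against -0.03 over all tested genes. Reads of Acta2, the classical smooth muscle actin, numbered 192, 195 and 87 without and 346, 2261 and 225 with the knockout label (log2 difference 0.60, SE 0.78). Its scaled level was highest in Yaf2KO 2, at 8919 CPM, and lowest in Yaf2KO 1, at 713 CPM, as for Tagln. Calponin 1 (Cnn1, an actin- and myosin-binding protein) had 87, 81 and 105 against 490, 752 and 328 counts (0.61, SE 0.46), and the myosin light chain gene Myl9 245, 169 and 400 against 896, 885 and 365 (-0.61, SE 0.40). The integrin gene Itga1 went another way, with its highest Yaf2KO level in library 1 (719 CPM). The summed level of the 6 listed genes ran from 20006 to 26429 CPM in wild type and was 9430, 43983 and 25412 in Yaf2KO 1 to 3, with Tagln the largest part in each library.

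Striated muscle genes had 7 of 54 members listed and 3 tested, Actn3, Acta1 and Nebl, with 0 called and a median of -0.27. Actn3, the fast-fibre alpha-actinin gene, had the most reads of them (352, 511 and 580 against 1941, 1557 and 1133; log2 fold change -0.27, SE 0.38). Among the listed genes with few reads, the muscle regulators Myog and Pax7 were low: Myog had at most 8 counts and Pax7 at most 7 in any library, and the cardiac myosin-binding protein gene Mybpc3 at most 25. Myog was at 0 in wild type 1 and Yaf2KO 3, and Pax7 at 0 in wild type 1. The sum over the 7 genes was 8461 to 11321 CPM in wild type and 5238 to 10327 in Yaf2KO, with Actn3 the largest part in each library.

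Collagen and matrix genes had 3 of 49 members listed and 2 tested, Col1a1 and Tnc, with 0 called and a median of 0.35. Tenascin C (Tnc, a matrix glycoprotein of embryonic mesenchyme) gave 15, 9 and 10 wild-type reads against 57, 124 and 29 (log2 difference 0.65, SE 0.63). Periostin (Postn, a matrix protein of fibroblasts) had 3, 3 and 0 against 0, 12 and 1. Summed, the 3 genes had 3175 to 5126 CPM in wild type and 715, 6402 and 5820 in Yaf2KO 1 to 3. Col1a1 makes up nearly all of this sum, which therefore restates its own values. Tnc alone was at 224, 155 and 144 CPM in wild type, against 117, 489 and 219 with Yaf2KO, lowest in Yaf2KO 1 and highest in Yaf2KO 2.

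Whether the members mark fibroblasts was checked on 36 embryonic fibroblast markers, of which 5 were listed and 3 tested, with 0 called and a median of 0.24. The mesenchymal factor Prrx1 gave 1, 1 and 1 wild-type reads against 0, 6 and 2. The ecto-5′-nucleotidase gene Nt5e (156, 121 and 81 against 624, 476 and 455) and the chemokine gene Cxcl12 (35, 33 and 43 against 201, 116 and 139) had their highest scaled level in Yaf2KO 3. The homeobox gene Meox1 (3, 5 and 2 against 38, 14 and 1) went the other way, highest in Yaf2KO 1 and lowest in Yaf2KO 3. Caveolin 1 (Cav1), abundant in fibroblasts, had 15, 31 and 6 against 71, 303 and 115 counts (log2 fold change 1.39, SE 0.82). The summed markers had 1920 to 3296 CPM in wild type and 1924, 3609 and 5367 in Yaf2KO 1 to 3. Their part in the Tagln and Col1a1 levels was not tested. With 5 of 36 markers listed, the cell type behind the 4 genes was not determined, and they are called here by their names.

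Of the 15 genes of these 4 lists averaging 10 or more reads, scaled values were highest in Yaf2KO 2 for 10, in Yaf2KO 3 for 3 and in Yaf2KO 1 for 2 among the Yaf2KO libraries. Over all 376 tested genes the shares were 24.7%, 34.6% and 40.7%. The 15 include Tagln, Col1a1, Acta1 and Actc1, each highest in Yaf2KO 2, so the count of 10 partly restates the members' own values. Actc1 and Meox1 are among the 15 but not among the tested genes. The counts describe the 3 libraries and say nothing of the genotype.

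**Figure D3:**
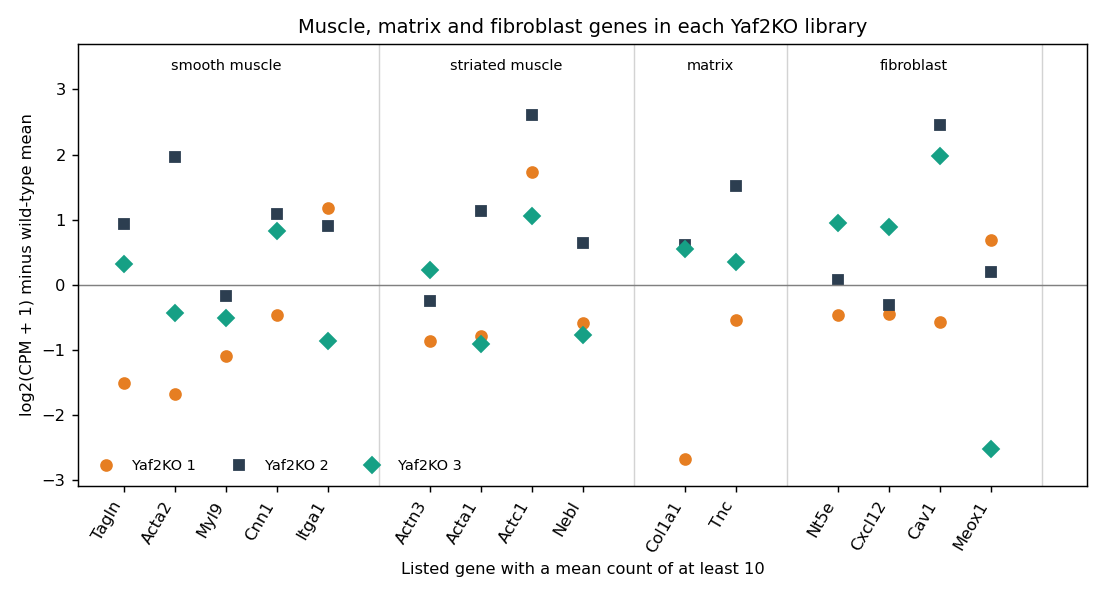
Difference of log2(CPM + 1) from the wild-type mean in Yaf2KO 1, 2 and 3 for the 15 listed smooth muscle, striated muscle, matrix and fibroblast genes averaging 10 or more reads. Col1a1 is at -2.68 in Yaf2KO 1 and 0.62 in Yaf2KO 2, and Actc1 is above 0 in all 3 libraries.

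Response genes of signalling pathways and genes of other lineages were read from further lists. Of 31 SRF, MRTF and YAP response genes 2 were listed, both tested and 0 called. Ankrd1, a cofactor gene induced by YAP, gave 7, 15 and 4 wild-type reads against 18, 118 and 33 (log2 difference 0.84, SE 0.89), and Tgfb1i1, which encodes the focal adhesion protein Hic-5, 9, 4 and 5 against 34, 69 and 30 (1.02, SE 0.67). Both were highest in Yaf2KO 2 after scaling, as Tagln was. Of 22 TGF-beta response genes 2 were listed, and Id3 was the 1 tested (-0.16, SE 0.45). Mesoderm and primitive streak genes had 10 of 28 listed, 7 tested and 1 called higher, Wnt8a (log2 difference 3.23, SE 0.55, edgeR adjusted p = 0.0434, 3 of 3 libraries above wild type), with a list median of 0.83. The Wnt8a call was lost by limma-voom, with the replicate block and without any 1 of the wild-type libraries. The listed mesoderm and primitive streak genes summed to 1400 to 2134 CPM in wild type and 1454, 4797 and 4387 in Yaf2KO 1 to 3. Among the Yaf2KO libraries the sum was lowest in Yaf2KO 1, as Col1a1 was. There it stayed within the wild-type range, with 690 CPM from Wnt8a, where Col1a1 fell below its own range. The part of these genes in the Col1a1 level was not tested. Stem cell markers (7 of 23 listed, all tested, 0 called, median -0.16) summed to 58849 to 68922 CPM in wild type and 86668, 60748 and 40677 in Yaf2KO 1 to 3, highest in library 1, where Col1a1 was lowest. Nanog was the largest part of this sum in each library (41305 CPM in Yaf2KO 1), so the sum partly restates the Nanog values given above. Sox7 was the 1 listed primitive endoderm marker (-0.42, SE 0.55).

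The genes most like each member over the 6 libraries were ranked by Pearson's r of log2(CPM + 1). The ranking ran over 304 other listed genes averaging 20 or more reads, leaving out Gm, Rik and clone-number symbols. The genes named were chosen for their likeness, so r is a description without a test. The libraries share one scaling, and 6 points are few. Tagln was closest to the WNT target Sp5 (r = 0.979), the interferon-induced GTPase gene Tgtp1 (0.961), the neural intermediate filament gene Nes (0.952) and Col1a1 (0.942). Without the libraries farthest from its median, Yaf2KO 1 and 2, these fell to 0.813, 0.824, 0.880 and 0.739. Col1a1 was closest to Nes (0.987), the matrix gene Efemp1 (0.958), Dpp6 (0.944) and Tagln (0.942). With wild type 3 and Yaf2KO 1 left out, its r with Tagln was 0.517, so that likeness rested in large part on these libraries.

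Both actins had other neighbours. Acta1 was closest to the caudal homeobox gene Cdx1 (r = 0.981, and 0.983 without wild type 1 and Yaf2KO 2), then to Cyp1a1 (0.915), the endothelin gene Edn1 (0.875) and Acta2 (0.873). Without the same libraries Cyp1a1, Edn1 and Acta2 fell to 0.751, 0.790 and 0.754. Actc1 was closest to the metallothionein gene Mt2 (0.968), Rab25 (0.964), Cnpy1 (0.939) and Tgm3 (0.890). With wild type 2 and Yaf2KO 2 left out, these were 0.856, 0.954, 0.726 and 0.773. Between members, r was 0.942 for Tagln and Col1a1, 0.647 for Tagln and Acta1, 0.444 for Col1a1 and Acta1, 0.116 for the 2 striated actins, 0.059 for Tagln and Actc1 and -0.209 for Col1a1 and Actc1. Among the 4 genes, then, Tagln and Col1a1 shared a pattern over the libraries, Acta1 ran closer to the smooth muscle actin Acta2 than to either, and Actc1 followed none of them. Acta2 itself had r = 0.889 with Tagln, slightly above its r with Acta1.

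The call of the 3 tested members, and the direction of Col1a1 and Acta1, changed with the scaling, while Tagln was above 0 under each scaling run. With all libraries taken as equally deep, Tagln, Col1a1 and Acta1 came to log2 fold changes of 2.06 (SE 0.63), 1.75 (SE 0.70) and 2.03 (SE 0.84), with adjusted p = 0.0247, 0.0404 and 0.0436 by edgeR. This setting calls 76.9% of the tested genes, all higher, and moves the median of all genes to 2.12. Each member's value was within its SE of that median, so the members did not stand apart from the typical listed gene.

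**Figure D4:**
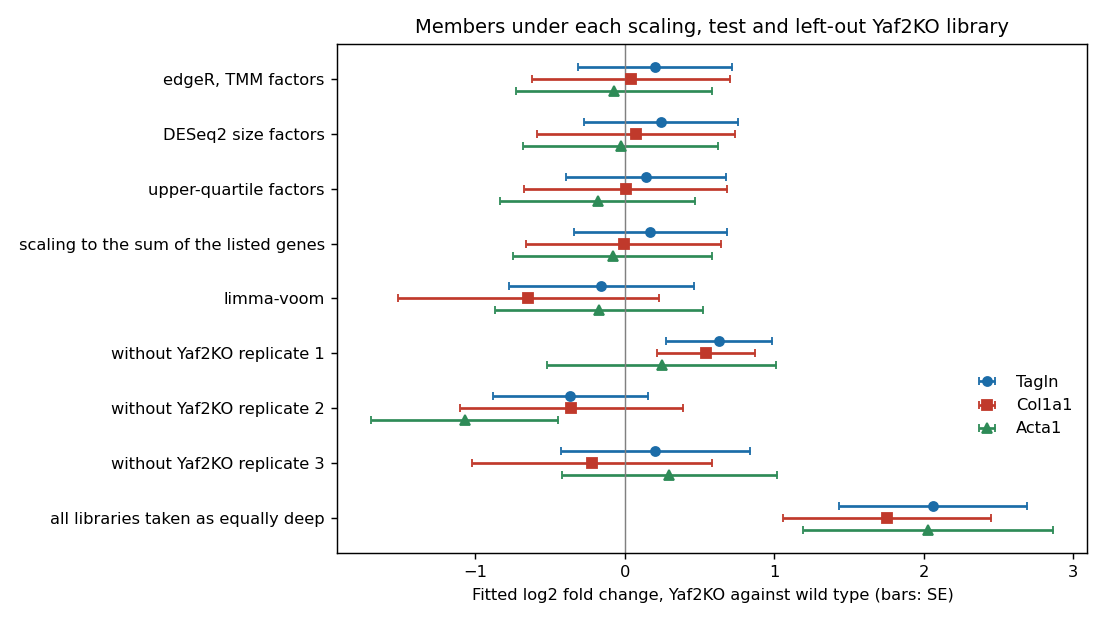
Fitted log2 fold change (Yaf2KO against wild type, bars SE) of Tagln, Col1a1 and Acta1 under scalings, a second test, single Yaf2KO libraries left out and equal depth. Values lie around 0 on the scaled data, from -1.07 for Acta1 without Yaf2KO 2 to 0.63 for Tagln without Yaf2KO 1, and near 2 at equal depth.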

How the data were processed

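Raw read counts per gene were deposited by the authors, 1 file per library, per the file headers; files were joined by gene identifier. HTSeq 0.6.0, TopHat2 2.0.12, Cufflinks 2.2.1 and build mm10 appear, without roles, in the notes on processing per the labels. The reason for the choice of genes and the strand setting are not stated in these sources. Groups and replicate numbers came from titles. The members and gene lists were chosen with earlier results of these data known. All library pairs differed by more than counting noise (lowest chi-square over its degrees of freedom 5.01), and each was taken as 1 replicate. This does not show that they are separate cultures.

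The test was edgeR 4.0.16 (R 4.3.3; glmQLFit robust, glmQLFTest) over all listed genes passing filterByExpr, with TMM factors (0.923 to 1.08) and Benjamini-Hochberg adjustment; limma 3.58.1 and DESeq2 1.42.0 served as alternatives. The script was tested on simulated counts. Ratios used log2 of counts plus 0.5 and exact permutation tests (scipy 1.17.1). Intervals are exact Poisson or Clopper-Pearson and cover counting error only, as no molecular identifiers are stated. The text names the 4 members, of the muscle, matrix and fibroblast lists up to 6 genes with the highest mean count (at least 10), of other lists up to 3, Nanog as reference and the 4 most alike genes per member; genes below a mean count of 10 (Prrx1, Postn, Myog, Pax7, Mybpc3) were added after their values were seen. Uba1y and Zfy1 were also named after their values were seen. Exon lengths are from GENCODE M21.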

Additional observations from a re-analysis of the deposited data

How the results depend on the processing

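On the scaled data Tagln, Col1a1 and Acta1 were called under none of the alternatives run, and the signs of their near-zero log2 fold changes were not stable. Tagln turned to -0.16 by limma-voom and -0.035 with the replicate block, Col1a1 to -0.0067 with scaling to the listed sum, -0.64 by limma-voom and -0.42 with the block, and Acta1 to 0.20 with no filter on low counts and again 0.20 at a minimum mean CPM of 1. The median of all genes was -0.13 by limma-voom, -0.12 with the block and 0.20 without a filter. Equal depth, which keeps the common shift by construction, gave calls at 2.06, 1.75 and 2.03 and 289 called genes. Leaving out single libraries gave -0.36 to 0.63 for Tagln, -0.36 to 0.55 for Col1a1, -1.07 to 0.39 for Acta1 and, for Actc1, which passed the filter only when a wild-type library was left out, 1.64 to 2.14, and 0 to 11 called genes in place of 3. The number of called genes was 10 by DESeq2's Wald test (2 genes without an adjusted p), 0 by limma-voom (14 at an unadjusted p under 0.05), 15 without a filter, 15 at a mean CPM of at least 1 and 0 with the replicate block (18 at an unadjusted p under 0.05). The ratio differences ranged, with single libraries left out, from -0.52 to 0.45 for Acta1 to Tagln, -0.47 to 1.19 for Acta1 to Col1a1, 0.93 to 2.16 for Actc1 to Tagln, 0.98 to 2.90 for Actc1 to Col1a1, 0.05 to 0.75 for Tagln to Col1a1 and 1.20 to 2.44 for Actc1 to Acta1. Members with all scaled Yaf2KO values above wild type numbered 1 to 3 with single libraries left out, and 3 without Yaf2KO 1; this check was chosen after seeing the data. The share over all listed genes was not computed with a library left out, so these counts are not read as a result about the members. The correlation of deviations within a replicate number was 0.02, 0.14 and 0.14, against -0.33 to 0.23 between different numbers. Whether same-numbered libraries share a batch is not known. Except where construction shows it, the cause was not tested. Depth limits Actc1 most.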
